A study of Mus musculus with 20 samples.

Results

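A group of 10 fibroblast growth factor (FGF) pathway genes was followed in mouse ear tissue: the receptors Fgfr1, Fgfr2, Fgfr3 and Fgfrl1, the ligands Fgf2, Fgf7 and Fgf10, and the Sprouty genes Spry1, Spry2 and Spry4. They were found by gene symbol and are 10 of the 19900 genes in the tables of the AD and ACD models, names the labels do not spell out. All 10 were present in both tables and passed the filter on low counts in every comparison. The names were put together with results of these libraries already known, so the calls below are descriptions of a fit over all genes and no independent test of these genes. Ears came from C57BL/6 mice that were healthy and 6 to 7 weeks old when selected. There were 4 groups of 5 libraries: AD model mice given SB415286 at 0.7 mg/kg, AD model controls, ACD model mice given SB415286 at 2 mg/kg and ACD model controls. SB415286, which blocks the kinases GSK3A and GSK3B, was given by intraperitoneal injection 4 h before the ears were taken. Sample labels list the controls as untreated and the design text as vehicle-treated, and the protocol names the AD model beside both doses. Below, injected libraries are those given SB415286, whether or not the controls received vehicle. The labels do not say how either disease model was induced, nor whether each library is a separate mouse, so p-values measure the spread between these libraries.

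FGF ligands bind receptor tyrosine kinases on the cell surface together with heparan sulfate, and the receptors switch on the Ras to ERK kinase relay. In skin, Fgf7 and Fgf10 are made by mesenchymal cells such as dermal fibroblasts and act on a form of Fgfr2 carried by keratinocytes, while Fgfr1 is the main receptor of mesenchymal cells. Fgfr3 is found in epidermis and restrains the growth of cartilage, and Fgfrl1 is a receptor without a kinase domain. Sprouty proteins dampen the relay, and since ERK activity raises Sprouty transcripts they form a feedback loop.

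Each library held 18165446 to 20862353 assigned reads, and values are normalised read counts scaled to library size (CPM) unless stated. With AD SB415286 library 7 and AD control 6 left out together, 3894 genes passed in the AD model, against 187 with all libraries. This pair was chosen with earlier results of these libraries known, so every adjusted p without it is a description and no independent test. Both were kept, and where a call of the 10 genes in the SB415286 comparisons differs without them, its value without them is given. Skin markers were present in every group: the 9 keratinocyte markers summed to at least 8660 CPM and the 8 fibroblast markers to at least 3050 CPM in each library, and none of them was at 0 throughout a group. In whole tissue, fewer cells of a type and less RNA per cell cannot be told apart.

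The start regions of Fgfr3, Spry1 and Fgf7 are shown first. They are windows of 250 bases before to 50 after a RefSeq start site in build GRCm38.p6, read 5′ to 3′ on the gene's strand, and capitals mark GGGCGG or its reverse complement CCGCCC, the core bound by SP and KLF factors. Fgfr3 has a window at each of 2 starts and was the member that fell with SB415286 in the AD model. Fgf7 was the member most raised, and Spry1 and Fgfr3 were among those lowered, in ACD control ears relative to AD control ears.
Fgfr3, first start (chr5:33721474-33721773, + strand): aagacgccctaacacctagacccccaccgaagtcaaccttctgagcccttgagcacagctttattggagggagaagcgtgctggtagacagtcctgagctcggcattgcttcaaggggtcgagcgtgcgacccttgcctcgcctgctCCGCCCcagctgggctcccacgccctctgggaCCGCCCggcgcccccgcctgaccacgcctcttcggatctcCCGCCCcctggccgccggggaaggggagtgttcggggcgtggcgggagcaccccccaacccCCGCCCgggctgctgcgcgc
Fgfr3, second start (chr5:33722056-33722355, + strand): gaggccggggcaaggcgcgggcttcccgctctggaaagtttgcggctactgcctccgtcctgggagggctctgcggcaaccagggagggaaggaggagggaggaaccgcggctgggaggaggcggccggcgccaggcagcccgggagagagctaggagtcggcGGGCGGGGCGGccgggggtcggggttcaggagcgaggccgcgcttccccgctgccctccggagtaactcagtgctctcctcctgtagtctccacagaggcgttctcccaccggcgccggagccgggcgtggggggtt
Spry1 (chr3:37639697-37639996, + strand): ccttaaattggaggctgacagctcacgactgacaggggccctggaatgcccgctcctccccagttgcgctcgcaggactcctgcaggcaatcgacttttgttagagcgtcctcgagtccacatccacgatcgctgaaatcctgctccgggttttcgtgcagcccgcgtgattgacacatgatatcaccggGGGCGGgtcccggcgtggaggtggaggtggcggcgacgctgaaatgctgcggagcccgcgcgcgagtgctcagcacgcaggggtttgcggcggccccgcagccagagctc
Fgf7 (chr2:126034408-126034707, + strand): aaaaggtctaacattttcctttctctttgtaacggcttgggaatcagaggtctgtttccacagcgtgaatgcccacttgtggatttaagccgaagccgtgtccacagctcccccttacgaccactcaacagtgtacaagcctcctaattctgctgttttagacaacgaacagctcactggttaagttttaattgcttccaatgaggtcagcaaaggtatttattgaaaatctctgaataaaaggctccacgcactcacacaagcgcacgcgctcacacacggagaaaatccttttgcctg
RefSeq windows were matched for 8 of the 10 members (9 windows), the others being Fgfr1 and Spry4. The Fgfr2 window is counted but not shown: its last 30 bases were in 0 of 27 GENCODE M21 transcripts of Fgfr2, whereas each other window matched at least 1 transcript of its gene. GGGCGG on either strand was present in 6 of the 9 windows, against 35.7% of 32851 windows of the same length over the genome. Fgfr3 had 4 and 2 such sites at its starts and Fgfrl1 had 4, while Fgf7, Fgfr2 and Spry2 had 0. The Fgf7 window had a GC content of 45.7% and the Fgfr3 windows had 69.7% and 73.0%, against a median of 52.7% over all windows. An ETS core, CCGGAAG on either strand, was present in the Fgfrl1 window (1 of 9, against 8.86% of all windows). Of the TCF and LEF core, only the form CTTTGA was looked for, on either strand, and it was in 0 of 9, against 16.0% of all. Other forms of that core were not searched. These matches describe letters in a window and not bound sites, and the pair of sites at the second Fgfr3 start overlap by their shared G.

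Transcript levels per length, in the deposited TPM, which scales for transcript length and library size, put Fgf10 at the bottom of the family in all 4 groups, with Fgfr1, Fgfr3 and Fgfr2 at the top in AD ears and Fgf7, Fgfr1 and Fgfr3 in ACD ears. In AD ears with SB415286, Fgfr1 led with 118 ± 5.83 TPM (SD, n = 5), ahead of Fgfr3 with 54.0 ± 10.5 TPM and Fgfr2 with 36.9 ± 3.92 TPM. In AD control ears, Fgfr3 had 104 ± 8.06 TPM and Fgfr1 87.9 ± 20.1 TPM, with overlapping ranges, followed by Fgfr2 with 46.3 ± 9.06 TPM. So the order of Fgfr1 and Fgfr3 by mean level differed between AD ears with SB415286, where their ranges did not overlap, and AD control ears, where they did. In ACD ears, Fgf7 stood beside the receptors: it had 58.0 ± 7.63 TPM with SB415286 and 53.2 ± 6.27 TPM in controls, next to Fgfr1 with 59.7 ± 2.19 and 52.5 ± 5.95 TPM, and the ranges of the 2 genes overlapped. Spry4 was the lowest of the Sprouty genes in all 4 groups, at 2.17 to 2.72 TPM on average, and Fgf10 the lowest member, at 0.646 to 1.38 TPM. Fgf10 and Spry4 did not overlap in ACD ears and did in AD ears. Fgf10 rested on 30 to 92 reads a library the fewest of the members.

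**Figure D1:**
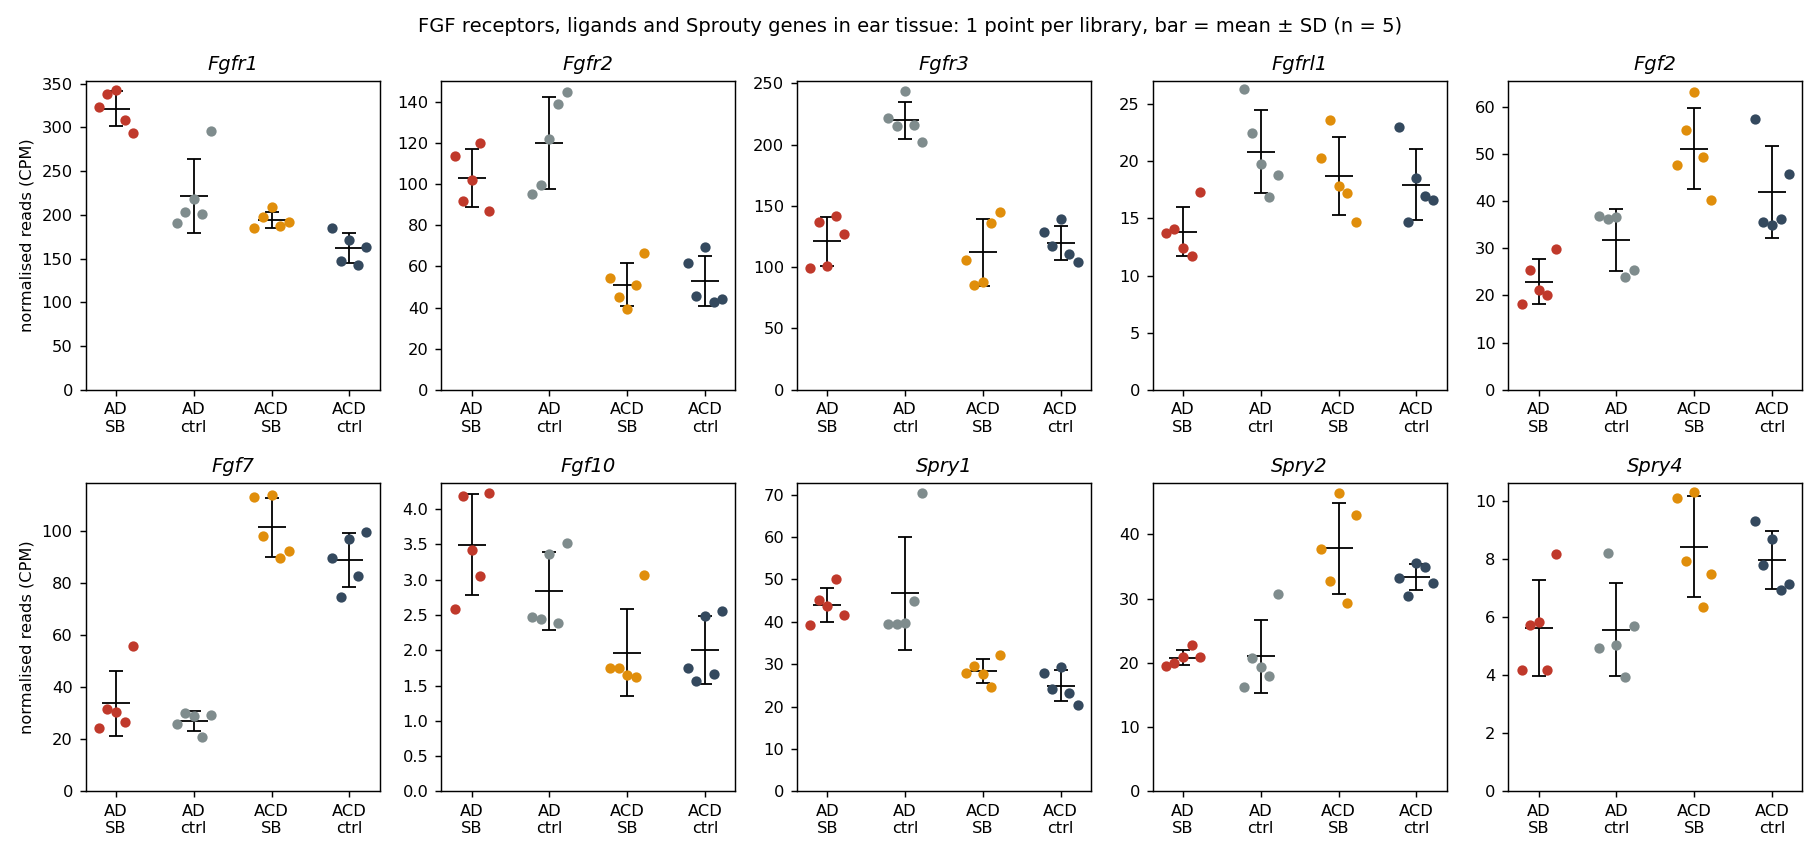
Normalised reads (CPM, vertical axis from 0) of each member gene in each library, by group (SB, SB415286; ctrl, control), with the mean and SD of 5 libraries as black bars. Fgfr3 in AD ears with SB415286 (99.5 to 142 CPM) lies below AD controls (202 to 244 CPM), and Fgf7 is high in ACD ears.

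The AD comparison asked how these genes differed between AD model ears with SB415286 and AD control ears. Of the receptors, Fgfr3 fell, while Fgfr1 had a positive and Fgfrl1 a negative value that did not pass. Fgfr3 had 99.5, 137, 101, 142 and 127 CPM in AD SB415286 libraries 2, 3, 4, 6 and 7, against 222, 215, 244, 216 and 202 CPM in AD control libraries 1, 2, 4, 5 and 6. Every injected library lay below every control, and libraries 2 and 4 were lowest. The log2 fold change was -0.86 ± 0.12 (SE, n = 5 per group), a fold of 0.55 (edgeR quasi-likelihood test, adjusted p = 0.0382). Groups did not overlap in the lower direction for 2.26% of the 15149 genes tested. Fgfr3 was the 1 member of 10 that passed. Of all genes tested, 1.23% passed, 0.647% lower and 0.587% higher, and since the members were chosen with results known nothing is read from this count. At an unadjusted p under 0.05 there were 4 members, against 20.1% of all genes.

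With groups that did not overlap, leaving libraries out could not turn the sign of Fgfr3. Its log2 fold change ran from -0.79 to -0.98 over all 20 alternatives run, but its call passed in 12 of them. It ended when SB415286 library 2, 3 or 4 was left out (adjusted p = 0.0536, 0.1 and 0.124 by edgeR) and when control 1, 2, 4 or 5 was left out (adjusted p = 0.0769 to 0.0993). It held without SB415286 library 7 (-0.88, adjusted p = 0.0182), without control 6 (-0.89, adjusted p = 0.0121) and without both (-0.92, adjusted p = 0.00357). Markers of cartilage and epidermis, where Fgfr3 is known to be expressed, were as follows. Of 8 cartilage markers tested, 1 passed: Sox9, the chondrocyte transcription factor, fell by 1.03 ± 0.21 on the log2 scale. That call had an adjusted p = 0.0488 by edgeR and passed in 7 of 20 alternatives: among fits without 1 library it held without SB415286 library 7 or control 6 and ended without any of the other 8 (adjusted p = 0.0802 to 0.135). The other 7 markers did not pass, with a list median of -1.41. The 10 cartilage markers summed to 365 to 486 CPM in AD SB415286 libraries and 403 to 611 CPM in AD controls. Acan, the largest part of these sums, averaged 345 CPM with SB415286 and 302 CPM in controls, while 7 of the 8 markers tested had values below 0. None of the 9 keratinocyte markers passed (median -0.09), and their sums were 14900 to 36900 CPM with SB415286 and 21700 to 32100 CPM in controls. Skeletal muscle markers summed to 99.7 to 2370 CPM with SB415286 and 1210 to 2990 CPM in controls (median -1.15). Hair follicle markers summed to 403 to 2660 CPM and 208 to 694 CPM (median 1.72, 6 of 9 tested). Tchh, the largest part of the hair sums, averaged 1280 CPM with SB415286 and 409 CPM in controls. Neither list had a marker past the threshold. The part of these tissues in the Fgfr3 value was not tested. G630022F23Rik, annotated on the opposite strand, covers 998 of the 7158 exon bases of Fgfr3 in GENCODE M21, and strand use in counting is not given in the sources used here.

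Fgfr1 had 323, 338, 343, 309 and 294 CPM in AD SB415286 libraries 2, 3, 4, 6 and 7, against 191, 203, 218, 201 and 296 CPM in AD control libraries 1, 2, 4, 5 and 6. Control 6 was the only control in the range of the injected libraries. The log2 fold change was 0.53 ± 0.12 (adjusted p = 0.0627 by edgeR), which did not pass. Without control 6 it was 0.66 (adjusted p = 0.0114), without SB415286 library 7 it was 0.55 (adjusted p = 0.0382) and without both 0.67 (adjusted p = 0.0022). Fgfr1 passed in 5 of 20 alternatives and in 2 of 10 fits without 1 library, where the adjusted p reached 0.16 by edgeR. The fibroblast markers, of cells that carry Fgfr1, had a median of -0.79 with 0 of 8 past the threshold, and summed to 3050 to 6680 CPM with SB415286 and 3510 to 10400 CPM in controls. The part of cell make-up in the Fgfr1 value was not tested. Fgfrl1, the receptor without a kinase, had 13.7, 14.1, 12.4, 11.7 and 17.3 CPM in the injected libraries in the same order, against 26.3, 22.5, 19.8, 16.9 and 18.8 CPM in the controls. Injected library 7, at 17.3 CPM, alone reached into the control range. The log2 fold change of Fgfrl1 was -0.60 ± 0.14 (adjusted p = 0.0659 by edgeR), and -0.74 without both libraries (adjusted p = 0.00761). It passed in 5 of 20 alternatives and in 2 of 10 fits without 1 library, where the adjusted p reached 0.171 by edgeR. Fgfr2, the keratinocyte receptor of Fgf7 and Fgf10, ranged from 87.1 to 120 CPM with SB415286 and from 95.1 to 145 CPM in controls, with wide overlap (log2 fold change -0.23 ± 0.14, adjusted p = 0.376 by edgeR).

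The make-up of the receptor pool was then compared within single libraries. Fgfr1 made up 58.2, 57.0, 60.7, 51.7 and 55.3% of the summed Fgfr1, Fgfr2 and Fgfr3 TPM in AD SB415286 libraries 2, 3, 4, 6 and 7. In AD control libraries 1, 2, 4, 5 and 6 it made up 34.9, 36.3, 34.7, 33.7 and 43.4%. The 2 groups did not overlap, and control 6 was nearest to the injected libraries. The Fgfr1 to Fgfr3 ratio in TPM was 1.80 to 2.81 with SB415286 and 0.722 to 1.22 in controls, so Fgfr1 outnumbered Fgfr3 in 5 of 5 injected libraries and in 1 control, library 6. The Fgfr2 share overlapped between the groups, at 15.1 to 20.1% and 16.8 to 22.7%. The summed receptor TPM was 193 to 222 with SB415286 and 205 to 280 in controls, also overlapping. In the ACD model the Fgfr1 share was 44.0 to 59.2% with SB415286 and 42.1 to 49% in controls, and these ranges overlapped. No test is given for these shares, since the members' levels were known when they were chosen.

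**Figure D2:**
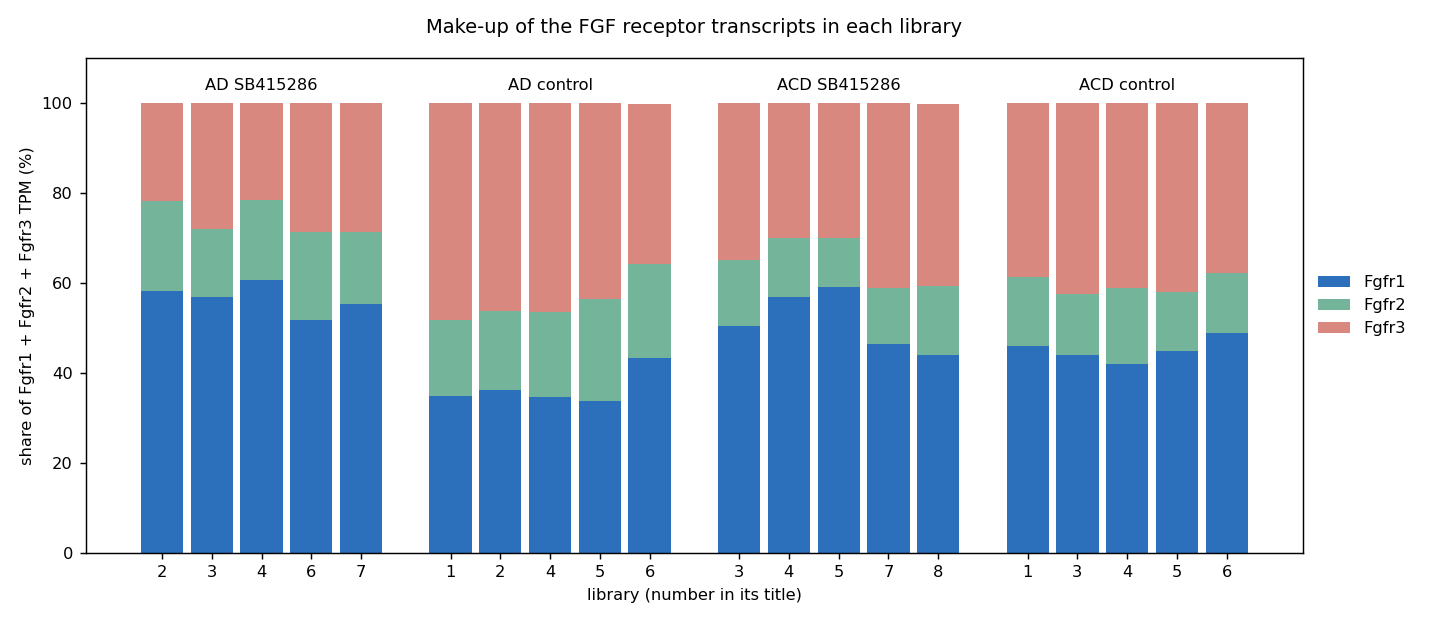
Share of Fgfr1, Fgfr2 and Fgfr3 in their summed TPM (percent, vertical axis), 1 bar per library, grouped by model and treatment. The Fgfr1 share is 51.7 to 60.7% in AD ears with SB415286 and 33.7 to 43.4% in AD control ears, and the ACD groups overlap.

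Among the ligands, none passed in the AD model. Fgf2, a broad-acting FGF that lacks a classical signal peptide, had 18.1, 25.3, 21.2, 20.0 and 29.9 CPM in AD SB415286 libraries 2, 3, 4, 6 and 7, against 36.8, 36.1, 36.6, 23.9 and 25.4 CPM in AD control libraries 1, 2, 4, 5 and 6. Controls 5 and 6 lay within the injected range and the other 3 controls above it. The log2 fold change was -0.48 ± 0.18 (adjusted p = 0.169 by edgeR), and -0.68 without SB415286 library 7 and control 6 (adjusted p = 0.0155). Fgf2 passed in that 1 of 20 alternatives and in 0 of 10 fits without 1 library (adjusted p = 0.052 to 0.342 by edgeR). Exons of Fgf2 share 640 of 6782 bases with Nudt6 on the opposite strand, and reads there cannot be told apart without strand. Nudt6 itself was at 0.06 ± 0.13 in the AD model. Fgf7 had 24.5, 31.5, 30.7, 26.5 and 55.8 CPM in the injected libraries and 25.9, 30.3, 29.0, 20.9 and 29.2 CPM in controls. Library 7 alone held the high value. The log2 fold change of Fgf7 was 0.32 ± 0.22 (adjusted p = 0.44 by edgeR), and 0.05 without library 7. Fgf10 lay at 2.59 to 4.23 CPM with SB415286 and 2.39 to 3.52 CPM in controls (0.30 ± 0.20, adjusted p = 0.421 by edgeR).

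None of the Sprouty genes passed in the AD model, and their values were near 0. Spry1 was at -0.09 ± 0.16, Spry2 at -0.02 ± 0.16 and Spry4 at 0.01 ± 0.24 on the log2 scale (adjusted p = 0.777, 0.955 and 0.985 by edgeR). Spry1 had 39.3, 45.1, 43.8, 50 and 41.5 CPM in AD SB415286 libraries 2, 3, 4, 6 and 7, against 39.4, 39.4, 39.7, 44.8 and 70.3 CPM in AD control libraries 1, 2, 4, 5 and 6. The high value of control 6 set it apart from the other controls, and Spry2 was also highest there, at 30.7 CPM against 16.3 to 20.8 CPM in the other controls. Spry2 was 19.6 to 22.8 CPM in all 5 injected libraries. Spry4 spanned 4.19 to 8.18 CPM with SB415286 and 3.95 to 8.19 CPM in controls. Without control 6, Spry1 and Spry2 were at 0.10 and 0.16, and neither passed.

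The ACD comparison asked the same at 2 mg/kg, and none of the 10 members passed. There 0.0264% of the 15150 genes tested passed by edgeR, and 13.8% had an unadjusted p under 0.05, among them Fgfr1 alone of the members. By DESeq2, Fgfr1 passed at an adjusted p = 0.0499 and the other 9 did not. Fgfr1 had 185, 197, 209, 187 and 192 CPM in ACD SB415286 libraries 3, 4, 5, 7 and 8, against 185, 147, 171, 143 and 163 CPM in ACD control libraries 1, 3, 4, 5 and 6. The lowest injected library and the highest control both had 185 CPM, and the rest of the injected libraries lay above all controls. The log2 fold change was 0.25 ± 0.07 (adjusted p = 0.206 by edgeR). Fgfr3 spread widely in the injected group, with 106, 85.5, 87.6, 136 and 145 CPM in SB415286 libraries 3, 4, 5, 7 and 8, against 129, 117, 139, 111 and 104 CPM in control libraries 1, 3, 4, 5 and 6. The controls lay inside the range of the injected libraries. The log2 fold change of Fgfr3 was -0.11 ± 0.15 (adjusted p = 0.785 by edgeR).

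All 10 members overlapped between the ACD groups, where 3.39% of genes did not. Fgfr2 spanned 39.1 to 66.6 CPM with SB415286 and 42.8 to 69.6 CPM in controls, and Fgfrl1 14.7 to 23.6 CPM and 14.7 to 23 CPM. Fgf2 spanned 40.3 to 63.2 CPM with SB415286 and 34.9 to 57.4 CPM in controls (0.27 ± 0.16), and Fgf7 89.9 to 114 CPM and 74.8 to 99.8 CPM (0.18 ± 0.10). Fgf10 spanned 1.62 to 3.07 CPM with SB415286, highest in library 8, and 1.56 to 2.56 CPM in controls. Spry1, Spry2 and Spry4 were at 0.17 ± 0.10, 0.17 ± 0.12 and 0.07 ± 0.15, and Fgf10 at -0.04 ± 0.24 on the log2 scale. The adjusted p of the 9 members other than Fgfr1 was 0.436 to 0.958 by edgeR. Of the lung epithelium markers, 3 of 3 tested rose in ACD ears with SB415286 (median 5.62 on the log2 scale), and the list summed to 10.9 to 44.3 CPM there and 0.552 to 1.15 CPM in ACD controls. Over all genes, 4 passed in the ACD model, 3 of them higher, and those 3 were these markers. The part of whatever raised these markers in the FGF values was not tested. The median log2 fold change of the 10 members was 0.12 in the ACD model and -0.06 in the AD model, against -0.01 and 0.00 over all genes tested.

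**Figure D3:**
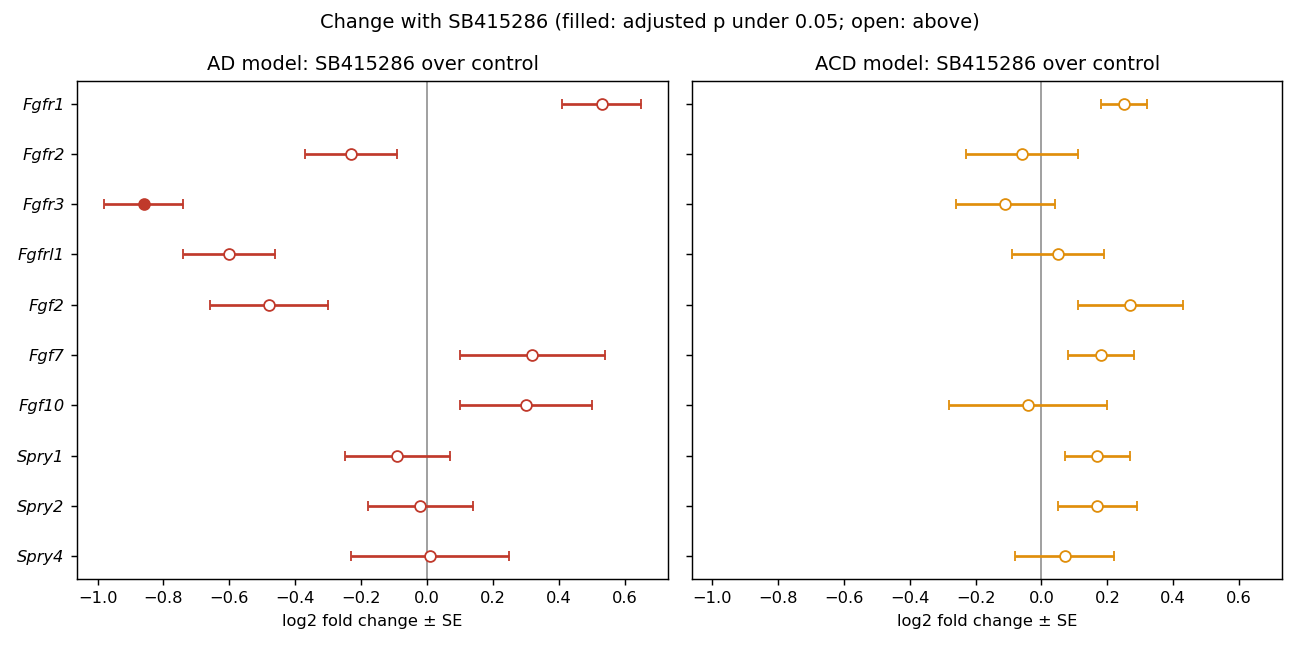
Log2 fold change of each member with SB415286 over control (horizontal axis) with its SE, in the AD model (left) and the ACD model (right), where filled points passed an adjusted p of 0.05. Fgfr3 in the AD model is at -0.86 and is the only filled point.

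A fit of all 20 libraries asked whether SB415286 acted differently in the 2 models. Of the 15700 genes tested, 0.051% passed, and none of the 10 members did. At an unadjusted p under 0.05 there were 3 members (Fgfr3, Fgfrl1 and Fgf2), against 12.6% of all genes. The difference, ACD effect minus AD effect, was largest for Fgfr3 (0.76 ± 0.20, adjusted p = 0.144 by edgeR), Fgf2 (0.76 ± 0.24, adjusted p = 0.227) and Fgfrl1 (0.65 ± 0.21, adjusted p = 0.225). Fgfr1 had a difference of -0.27 ± 0.15. These 4 passed with SB415286 library 7 and control 6 of the AD model left out together, at an adjusted p = 0.016 to 0.024 by edgeR. Fgfr3 also passed by DESeq2 at an adjusted p = 0.0383. Fgfr1, Fgf2 and Fgfrl1 thus passed in 1 of 27 alternatives each and Fgfr3 in 2 of 27. Each of the 4 genes passed in 0 of 20 fits without 1 library (adjusted p = 0.0581 to 0.648 by edgeR). The doses differed between the models as well, so dose and model cannot be told apart.

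Control ears of the 2 models differed in most members, in a comparison where 61.6% of the 15700 genes tested passed, 29.5% higher and 32% lower. Fgf7, Spry2 and Spry4 were higher in ACD controls, Fgfr1, Fgfr2, Fgfr3 and Spry1 were lower, and Fgfrl1, Fgf2 and Fgf10 did not pass, so 7 of 10 passed. That share lies near the share of all genes and is not a result about the family. The libraries of each model come in a table of their own, and model and any separate handling of the 2 sets cannot be told apart. Fgf7 had 89.9, 74.8, 97.1, 82.7 and 99.8 CPM in ACD control libraries 1, 3, 4, 5 and 6, against 25.9, 30.3, 29.0, 20.9 and 29.2 CPM in AD control libraries 1, 2, 4, 5 and 6. The groups did not overlap, as for Fgfr1, Fgfr2, Fgfr3 and Spry1 in the lower direction. Among all genes, 47.3% did not overlap, 23.2% higher and 24.2% lower. Fgf7 had a log2 fold change of 1.71 ± 0.18, a fold of 3.28 (adjusted p = 5.23e-07 by edgeR). The Fgf7 to Fgf10 ratio in TPM was 66.8 to 88.4 in ACD controls and 14.3 to 21.4 in AD controls.

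Fgfr2, which receives Fgf7, was lower where Fgf7 was higher. It had 61.8, 45.4, 69.6, 42.8 and 44.3 CPM in ACD control libraries 1, 3, 4, 5 and 6, against 95.1, 99.8, 122, 139 and 145 CPM in AD control libraries 1, 2, 4, 5 and 6. All ACD controls lay below all AD controls, with a log2 fold change of -1.19 ± 0.16 (adjusted p = 9.18e-06 by edgeR). Exons of Fgfr2 share 314 of 10328 bases with Ctbp2 on the same strand, and reads there cannot be told apart by strand. Ctbp2 itself was at 0.52 ± 0.07 in this comparison (adjusted p = 8.3e-06 by edgeR). Fgfr3 averaged 120 ± 14.1 CPM in ACD controls and 220 ± 15.5 CPM in AD controls (SD, n = 5 each), a log2 fold change of -0.88 ± 0.14. Fgfr1 averaged 162 ± 17.6 CPM and 222 ± 42.5 CPM in the same groups (-0.45 ± 0.10). Fgfr1, Fgfr2 and Fgfr3 were thus lower in ACD controls, while Fgfrl1 did not pass. Outside the 10 genes, Fgfr4 was also lower (-0.94 ± 0.31, adjusted p = 0.0145 by edgeR), at low means of 1.56 CPM in ACD and 2.99 CPM in AD controls. The summed TPM of Fgfr1, Fgfr2 and Fgfr3 was 105 to 133 in ACD controls, against 205 to 280 in AD controls. TPM has no TMM scaling between the models, so the size of this gap differs from that in CPM. Nptn, for example, averaged 158 TPM in both control groups but 204 CPM in ACD and 169 CPM in AD controls. The CPM values above are the measure of the model difference.

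The Sprouty genes split by member between the models. Spry1 averaged 25.0 ± 3.64 CPM in ACD controls and 46.7 ± 13.4 CPM in AD controls (SD, n = 5 each), and its log2 fold change was -0.90 ± 0.14. Spry2 averaged 33.4 ± 2.09 CPM and 21.0 ± 5.64 CPM in the same groups (0.66 ± 0.14), and Spry4 7.97 ± 1.01 CPM and 5.56 ± 1.60 CPM (0.52 ± 0.20, adjusted p = 0.0346 by edgeR). Spry1 and Spry2 thus changed in opposite directions, and each passed in all 20 fits without 1 library. The Spry4 call ended without AD control 1, 4, 5 or 6 or ACD control 1, 3 or 4 (adjusted p = 0.05 to 0.0951 by edgeR). Fgf2 (0.40 ± 0.17) and Fgf10 (-0.50 ± 0.22) each had an adjusted p = 0.0513 by edgeR, just above the threshold, and they passed in 11 and 8 of 20 fits without 1 library. Fgfrl1 was at -0.22 ± 0.15.

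Marker genes of several cell types passed in the same comparison. Of 7 leukocyte markers, 6 were higher in ACD controls (median 1.88 on the log2 scale), with sums of 2610 to 4290 CPM in ACD controls and 630 to 1200 CPM in AD controls. Of 9 keratinocyte markers, 5 were lower (median -0.68), with sums of 12400 to 17500 CPM and 21700 to 32100 CPM. Of 8 fibroblast markers, 4 were higher (median 0.52), with sums of 8140 to 11200 CPM and 3510 to 10400 CPM. Of 9 cartilage markers, 4 were lower (median -0.56), among them Sox9 (-1.18 ± 0.17, adjusted p = 1.01e-05 by edgeR), with sums of 191 to 509 CPM and 403 to 611 CPM. Of 9 skeletal muscle markers, 2 were lower (median -0.95). Hair follicle markers summed to 9.49 to 20.5 CPM in ACD controls and 208 to 694 CPM in AD controls, where Tchh averaged 10.6 and 409 CPM. No marker of these lists was at 0 throughout a group, and the part of cell make-up in the FGF values was not tested.

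**Figure D4:**
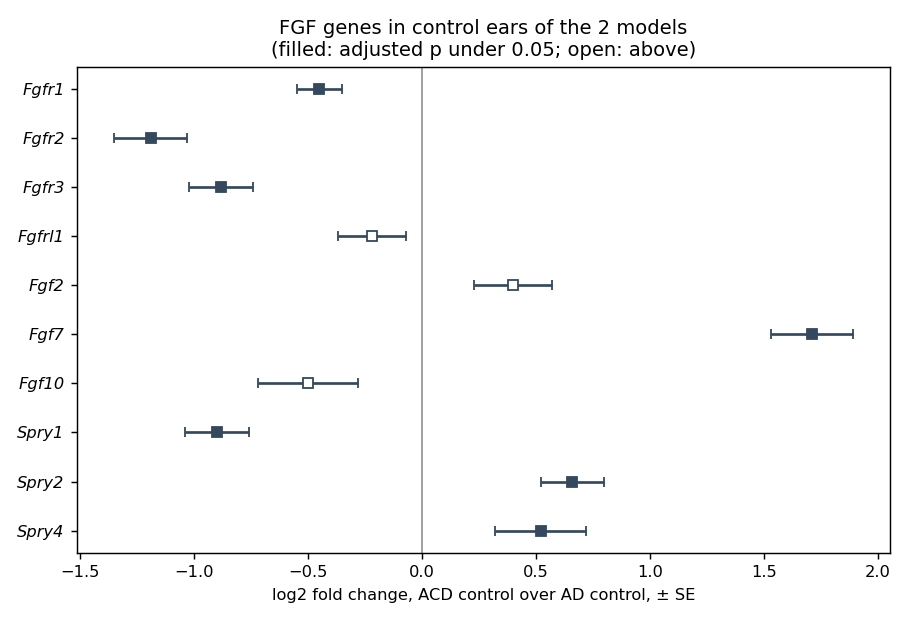
Log2 fold change of each member in ACD control ears over AD control ears (horizontal axis) with its SE, where filled squares passed an adjusted p of 0.05. Fgf7 at 1.71 is the highest and Fgfr2 at -1.19 the lowest.

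The rest of the pathway was followed in 75 further genes. With SB415286, the AD model had 1 of 68 tested past the threshold and the ACD model 0 of 71 by edgeR, against 1.23% and 0.0264% of all genes. At an unadjusted p under 0.05 there were 16 and 9, against 20.1% and 13.8% of all genes. Without SB415286 library 7 and control 6, 11 of 69 passed higher and 4 lower in the AD model. Among all 15163 genes tested in that fit, 1796 passed higher and 2098 lower. Gpc1, a glypican that carries heparan sulfate on the cell surface, averaged 59.9 ± 7.05 CPM in AD SB415286 libraries and 94.8 ± 11.8 CPM in AD controls (SD, n = 5 each). It fell by 0.67 ± 0.11 on the log2 scale (adjusted p = 0.0382 by edgeR) and was at 0.18 ± 0.07 in the ACD model, and this difference between the models passed (0.85 ± 0.13, adjusted p = 0.0146 by edgeR). The Gpc1 call in the AD model passed in 11 of 20 alternatives: among fits without 1 library it held without SB415286 library 7 (adjusted p = 0.0211) or control 6 (adjusted p = 0.0133) and ended without any of the other 8 (adjusted p = 0.0577 to 0.124), and with the replicate block it was -0.70 (adjusted p = 0.257). Its difference between the models passed in 25 of 27 alternatives, and ended without ACD control 3 (adjusted p = 0.0505) and with the block (0.88, adjusted p = 0.149). The medians of the 68 and 71 genes were 0.07 and 0.04. Of the heparan sulfate list, the other 17 genes did not pass in the AD model, and Sdc4, a syndecan, was at 0.21 ± 0.13 in the ACD model.

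The other lists held no gene past the threshold with SB415286. Among other ligands, of which 8 of 13 were tested in AD ears and 9 in ACD ears, Fgf13 was at -0.62 ± 0.16 in AD and -0.51 ± 0.21 in ACD ears, and Fgf11 at -0.63 ± 0.30 and -0.48 ± 0.20. Both are intracellular FGF homologues that do not signal through the receptors. Among the other receptor, co-receptors and carriers, Fgfr4, a further receptor tyrosine kinase, was at -1.74 ± 0.37 in the AD model (adjusted p = 0.0504 by edgeR, and 0.00279 without SB415286 library 7 and control 6). There Fgfr4 passed in 6 of 18 alternatives and in 2 of 10 fits without 1 library, where the adjusted p reached 0.144 by edgeR. Its level was low, averaging 0.886 CPM in AD SB415286 libraries and 2.99 CPM in AD controls. Fgfbp3, an FGF-binding carrier protein, was at 1.58 ± 0.33 in the AD model (adjusted p = 0.0518, and 0.00221 without that pair) and at 0.93 ± 0.26 in the ACD model, where Nptn was at -0.07 ± 0.05. Among 20 relay genes, Sos2, a Ras activator, was at 0.30 ± 0.10 and 0.22 ± 0.06 in the AD and ACD models, and Araf at -0.21 ± 0.07 in the AD model. Among ERK feedback and target genes, 11 of 14 had values above 0 in AD ears and 13 of 15 in ACD ears, with medians of 0.22 and 0.11 and none past the threshold. The relay list had 15 and 13 of 20 above 0, and all genes tested had medians of 0.00 and -0.01. Since the lists were chosen with results known, nothing is read from these signs. Dusp5, a nuclear ERK phosphatase, was at 0.72 ± 0.22 in AD and 0.46 ± 0.11 in ACD ears, and Spred2, a Sprouty relative, at 0.22 ± 0.08 in the ACD model. The ETS factor Etv4 was at 0.69 ± 0.15 in the AD model (adjusted p = 0.0557 by edgeR, and 0.0126 without SB415286 library 7 and control 6). In the AD model, Etv4 and Fgfbp3 each passed in 5 of 20 alternatives and in 2 of 10 fits without 1 library. The adjusted p in those fits reached 0.144 for Etv4 and 0.136 for Fgfbp3 by edgeR.

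**Figure D5:**
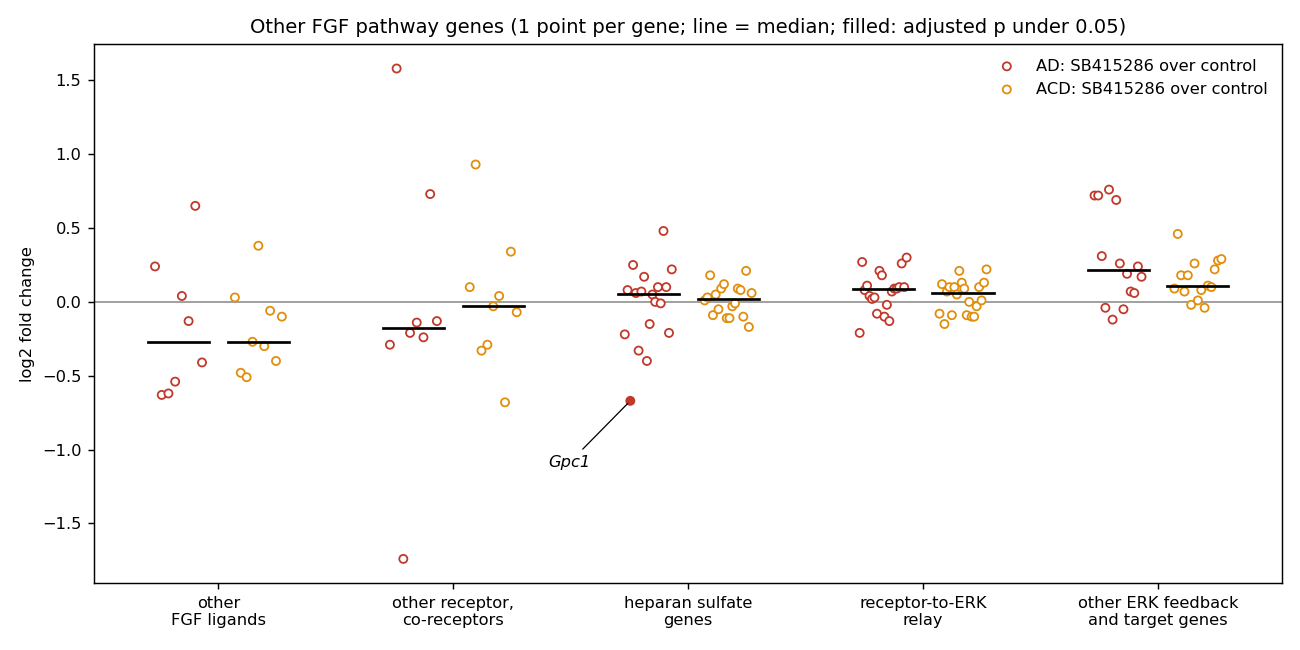
Log2 fold change with SB415286 over control (vertical axis) of each tested gene in 5 lists of other FGF pathway genes, AD model left and ACD model right in each pair, with the list median as a black line. Gpc1 in the AD model at -0.67 is the only filled point, which marks an adjusted p under 0.05.

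For the interaction, the genes with the smallest p in the lists without a call were Fgf16 (1.53 ± 0.81) and Fgf23 (-1.04 ± 0.66), Fgfr4 (1.42 ± 0.46, adjusted p = 0.227, and 0.00745 by edgeR without AD SB415286 library 7 and AD control 6) and Fgfbp1 (0.40 ± 0.26), the adaptor Shc1 (-0.23 ± 0.10) and Map2k2 (0.20 ± 0.09), and Spry3 (1.09 ± 0.47) and Etv4 (-0.42 ± 0.22). Low levels limit some of these: group means were 0.0675 to 0.7 CPM for Fgf16, 0.338 to 1.12 CPM for Spry3 and 0.886 to 2.99 CPM for Fgfr4. The Fgfr4 difference passed in 2 of 27 alternatives and in 1 of 20 fits without 1 library. Between control ears, 16 of 71 pathway genes were higher and 28 lower in ACD controls, a share near that of all genes. Of other ligands, Fgf22 was lower (-2.86 ± 0.34), while Fgf9 (1.60 ± 0.30), Fgf23 (2.04 ± 0.48) and Fgf16 (1.68 ± 0.51) were higher. The sulfatases Sulf1 and Sulf2, which trim heparan sulfate, changed in opposite directions (1.23 ± 0.14 and -1.42 ± 0.13), the glypican Gpc6 was lower (-1.63 ± 0.17) and Sdc4 higher (0.89 ± 0.17). Flrt1 (-2.42 ± 0.30) and Fgfbp3 (-1.20 ± 0.33) were lower, and the co-receptor Kl (2.84 ± 0.67) and Nptn (0.27 ± 0.07) higher. Kl and Fgf16 rest on few reads: Kl averaged 0.134 CPM in AD controls and 0.986 CPM in ACD controls, and Fgf16 0.16 and 0.528 CPM. In the relay, the docking proteins Frs2 (-0.50 ± 0.08) and Gab1 (-0.79 ± 0.11) and the phospholipase Plcg1 (-0.81 ± 0.12) were lower and the adaptor Grb2 higher (0.58 ± 0.09). Among feedback genes, Rasa1 (-0.50 ± 0.05), Dusp7 (-0.64 ± 0.12), Il17rd (-1.09 ± 0.20) and Etv1 (-0.61 ± 0.14) were lower.

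Likeness to other genes was measured for the 3 members whose log2 CPM varied most over the 20 libraries, as the root-mean-square difference in log2 CPM after centring each gene, among 14477 genes of at least 1 CPM. Nearest to Fgf7 (SD 0.91) were Sod2, the mitochondrial superoxide dismutase (0.14), Arid5a, an RNA-binding protein that stabilises cytokine transcripts (0.18), and the GTPase Rhoc (0.20). Nearest to Fgfr2 (SD 0.62) were Kctd15 (0.15), the guidance receptor Robo1 (0.16) and Mb21d2 (0.16). Nearest to Fgf2 (SD 0.52) were Creb3l1, a transcription factor of the endoplasmic reticulum (0.16), the focal adhesion protein Tgfb1i1 (0.17) and Crtap, which takes part in collagen modification (0.18). These libraries share the model difference described above, which enters each of these values.

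In build GRCm38.p6 (RefSeq), Fgfr3 lies on chromosome 5 at 33721724 to 33737068 (Entrez Gene 14184) and Fgfrl1 on the same chromosome at 108694229 to 108706950 (116701). Fgfr1 lies on chromosome 8 at 25518759 to 25575718 (14182) and Fgfr2 on chromosome 7 at 130162451 to 130266808 (14183). Fgf2 and Spry1 lie near each other on chromosome 3, at 37348477 to 37410106 (14173) and 37639947 to 37644599 (24063), and Fgf7 lies on chromosome 2 at 126034658 to 126091185 (14178). Fgf10 lies on chromosome 13 at 118714699 to 118792573 (14165) and Spry2 on chromosome 14 at 105891947 to 105896819 (24064). Exons of Spry1 share 710 of 2906 bases with Gm42922 on the opposite strand. Values are per gene, so receptor splice forms, which set the ligands that Fgfr1, Fgfr2 and Fgfr3 bind, were not resolved.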

How the data were processed

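RNA sequencing was done on oligo(dT)-selected RNA, per the labels' protocols, in 20 libraries, grouped by their titles. The deposited table of each model holds estimated (expected) counts, FPKM and TPM per gene, per the file headers. Per the submitters' processing notes, the tools were RSEM 1.2.8, Bowtie2 2.2.5, HISAT2 and HISAT, and the builds GRCm38.p6 and a human one, with no role or order.

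The authors' expected counts were rounded and fitted in R 4.3.3 with edgeR 4.0.16 (filterByExpr, TMM, robust quasi-likelihood, 2-sided, Benjamini-Hochberg over all genes tested, threshold 0.05). Each model was fitted alone (15149 and 15150 genes), and the interaction and the control comparison in 1 fit of all libraries. CPM uses TMM factors of that fit. Deposited TPM served for levels between genes and deposited FPKM, with limma 3.58.1, for an alternative. DESeq2 1.42.0 was another. Simulated data checked the tests.

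The members and lists were chosen with earlier results of these data known. The text names the members, per pathway list up to 4 genes past the threshold or the 2 with the smallest p, and the 3 genes most like each of the 3 most variable members. The text leaves out 1 pathway gene that this rule names, and names Fgfr4 between control ears outside the rule. Libraries within a group differed by at least 11.4 times the counting variance, so none was a copy. Gene identifiers and start regions come from RefSeq.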

Additional observations from a re-analysis of the deposited data

Results flagged for a closer look

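Within each group of 5, libraries standing apart from the rest of their group by the gap to the nearest library were looked for in all 40 combinations of member and group, where chance gives about 1 in 20. There were 4. Fgf7 was 55.8 CPM in AD SB415286 library 7, against 24.5 to 31.5 CPM in the other injected libraries. In AD control library 6, Fgfr1 was 296 CPM, against 191 to 218 CPM in the other AD controls, and Spry1 was 70.3 CPM, against 39.4 to 44.8 CPM. Fgf10 was 3.07 CPM in ACD SB415286 library 8, against 1.62 to 1.75 CPM in the others, at low read numbers. No member's effect of SB415286 differed between the models past the threshold.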

How the results depend on the processing

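Over all alternatives for the 10 members in 4 comparisons, 858 values kept their side of the threshold, 41 passed newly, 15 no longer passed, and no called value changed sign. The AD model depended most on single libraries. With 1 library left out, 0 to 1423 genes and 0 to 3 members passed there, 2 to 18 genes and 0 members in the ACD model, 1 to 312 genes and 0 members for the interaction, and 9079 to 9991 genes and 6 to 9 members between controls. By DESeq2, the AD model gave 1227 genes and 3 members, the ACD model 415 and 1, and the interaction 178 and 1. Without SB415286 library 7 and control 6 of the AD model, 3894 genes and 4 members passed in the AD model (Fgfr1, Fgfr3, Fgfrl1 and Fgf2) and 2117 genes and 4 members for the interaction. In 1 fit of all 20 libraries, 1461 genes and 3 members passed in the AD model. Without the filter, 48 genes passed in the AD model and 5 for the interaction. Upper quartile scaling gave 13 genes in the ACD model and 14 for the interaction, and FPKM with either pseudocount 12 genes in the ACD model. The cause of these shifts was not tested.

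With the number in the title as a replicate block, 0 genes and 0 members passed in the AD model (Fgfr3 at -0.98, adjusted p = 0.255 by edgeR), 1 gene in the ACD model and 1 for the interaction. Same-numbered libraries deviated from their group means with correlations of -0.17, -0.20 and 0.25 (AD) and -0.18, -0.01 and 0.20 (ACD). Only for AD number 6 was the same-numbered control the nearest one, and control 6 was also the nearest for AD numbers 2 and 4. Numbers present in 1 group alone could not be compared, so these few values do not settle whether the numbers pair samples. The block was not run between controls, since its numbers lie within a model. Depth limits Fgf10 most.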
